A study of Ovis aries with 12 samples.

Results

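The calgranulin and mucosal antimicrobial protein genes were followed in cultured epithelial cells of the sheep (Ovis aries) oviduct. The genes were found by symbol in the authors' gene table of 18340 genes. Of 7 symbols sought, 6 were present (S100A8, S100A9, S100A12, LCN2, LTF and SLPI), and DEFB1 was not a gene name in the table. They were chosen by measured values, with earlier results of these libraries in view and chiefly the lower calgranulin levels at 1.5 h against 0 h, so the values at 1.5 h are given as a description and carry no test. Mucosal epithelium had been scraped from the ampulla of the tube after trypsin and kept for 12 h without serum or phenol red. The cells then received oestradiol (E2) at 1e-08 M, and RNA was sequenced at 0, 1.5, 3.5 and 5.5 h with 3 libraries at each time, 12 in all. The labels number the libraries 1 to 3 at every time but give no animal, age or breed, and do not say whether a number stands for an animal, a culture or a day. Libraries kept without oestradiol beyond 0 h were not analysed here, so hormone and time in culture cannot be told apart.

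Calgranulins are small calcium-binding proteins of the S100 family. S100A8 and S100A9 pair to form calprotectin, which withholds zinc and manganese from microbes, and S100A12 is a related protein that binds copper and zinc. All are made in quantity by neutrophils and also by epithelia under stress. LCN2 (lipocalin 2) captures bacterial siderophores, LTF (lactotransferrin) binds iron, and SLPI (secretory leukocyte peptidase inhibitor) blocks neutrophil elastase and has antimicrobial activity of its own. DEFB1 encodes a beta-defensin of epithelial surfaces. In the oviduct such proteins belong to the fluid that meets sperm and embryo, and steroid hormones are known to act on the tissue that secretes it.

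Counts in genes summed to between 4.85e+07 and 7.94e+07 per library, which puts the 3 counts taken as a detection floor at 0.0378 to 0.0619 CPM (counts scaled to library size). That floor covers counting error only, and the CPM of genes given below were also scaled by TMM. The libraries numbered 3 stood apart from numbers 1 and 2 on the first principal component of log2 CPM, and number 3 at 1.5 h lay away from the other three of its number, at 5.26 on that component against 49.98 to 57.1. Libraries of a number resembled each other across times, so differences are also given within same-numbered pairs. No label says that the libraries are separate cultures or animals, so each p-value reflects the spread among these 12 libraries alone, and that spread may be technical.

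The calgranulins were well measured and the iron-binding proteins scarce. Scaled to transcript length from the counts, S100A12 averaged 180 FPKM (fragments scaled to transcript length and to library size) over the 12 libraries, S100A9 143 and S100A8 66.6 FPKM. SLPI averaged 28.6 FPKM, LCN2 1.15 and LTF 0.688 FPKM. S100A12 ran from 43.9 to 480.5 FPKM and S100A9 from 54.3 to 289.7 FPKM, so these neighbours in the order did not differ beyond their spread. A tested gene needed a mean of at least 1 FPKM in the deposited values. LTF lay under it at 0.687 and LCN2 just over it at 1.15, so 5 of the 6 genes were tested. A row that the table describes as "Beta-defensin 1" without a gene name (ENSOARG00000006364) was left untested, with 0 to 12 counts per library.

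The 3 calgranulin genes lie within one stretch of chromosome 1 in the authors' coordinates, whose genome build is not given in the sources used here. S100A9 (ENSOARG00000000417) occupies chr1:102297137-102299291 on the plus strand. S100A12 (ENSOARG00000000432) lies at chr1:102311556-102312291 and S100A8 (ENSOARG00000000450) at chr1:102332237-102332680, both on the minus strand. On one side lie PGLYRP3 and PGLYRP4, overlapping genes of peptidoglycan recognition proteins, with 0 to 33 and 8 to 78 counts per library. On the other side the unnamed ENSOARG00000000463 had 0 to 5 counts, and the calgranulins had 465 to 7866. SLPI (ENSOARG00000004969) lies on chromosome 13, LTF (ENSOARG00000008620) on chromosome 19 and LCN2 (ENSOARG00000010867) on chromosome 3.

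By counts, S100A8 was flat across time in number 1, lower after 0 h in number 2, and moved widely in number 3. In libraries 1, 2 and 3 it had 20.2, 16.2 and 45.5 CPM at 0 h and 19.5, 10.8 and 7.84 CPM at 1.5 h. At 3.5 h it had 19.9, 10.5 and 47.7 CPM, and at 5.5 h 21.4, 13.4 and 18.6 CPM. The highest of the 12 values was number 3 at 3.5 h, followed by number 3 at 0 h, the lowest was number 3 at 1.5 h, and every pair of times overlapped.

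S100A12 followed S100A8 closely and had the widest range of the calgranulins. It had 43.96, 37.99 and 141 CPM in libraries 1, 2 and 3 at 0 h and 50.2, 21.9 and 13.5 CPM at 1.5 h. At 3.5 h the values were 42.5, 20.4 and 142 CPM, and at 5.5 h 55.2, 25.6 and 51.1 CPM. Within number 3 the highest library was 10.5 times the lowest, against 1.3 times within number 1 and 1.87 times within number 2.

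S100A9, the partner of S100A8 in calprotectin, moved less. It had 63.9, 58.1 and 122 CPM in libraries 1, 2 and 3 at 0 h and 65.7, 42.1 and 23.9 CPM at 1.5 h. It had 57.1, 43.6 and 107 CPM at 3.5 h and 67.1, 45.3 and 39.8 CPM at 5.5 h. Its number 3 library at 5.5 h was the lowest of that time, whereas S100A8 and S100A12 were lowest there in number 2. The count of S100A12 per count of S100A8 was 2.97 and 3.1 in number 3 at 3.5 h and 0 h, and 1.72 to 2.74 in the other libraries.

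**Figure D1:**
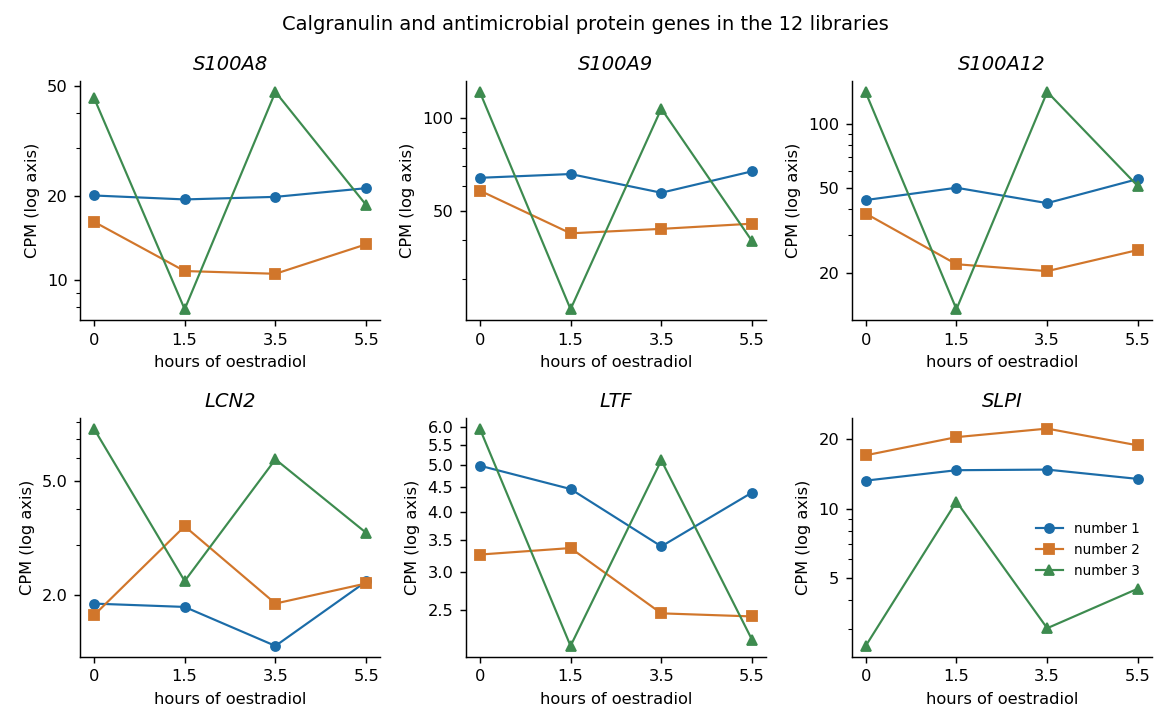
CPM (log axis) of the 6 genes at 0, 1.5, 3.5 and 5.5 h of oestradiol, 1 point per library, with lines joining libraries of the same number. S100A8 lay between 19.5 and 21.4 CPM in number 1 and between 7.84 and 47.7 CPM in number 3. In number 3 SLPI was highest at 1.5 h (10.7 CPM), where each calgranulin was lowest.

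At 1.5 h the differences from 0 h therefore came mostly from number 3. S100A8 differed by −0.05, −0.59 and −2.53 on the log2 scale of CPM in pairs 1, 2 and 3, S100A9 by 0.04, −0.46 and −2.35, and S100A12 by 0.19, −0.79 and −3.39. Averaged over pairs these came to −1.06 ± 1.31, −0.92 ± 1.26 and −1.33 ± 1.85 (SD, n = 3 pairs). In a fit of numbers 1 and 2 alone, the log2 differences of S100A8, S100A9 and S100A12 at 1.5 h were −0.26, −0.18 and −0.18. Without the 0 h library numbered 3 they were −0.52, −0.48 and −0.52, and without the 1.5 h library numbered 3 they were −0.85, −0.59 and −1.04. Over all tested genes, edgeR called 0% at 1.5 h, and edgeR with the replicate block and DESeq2 called 0.00832% each. In libraries of bulk cells, fewer cells of a type and less RNA per cell cannot be told apart.

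The deposited FPKM values of the calgranulins gave a more even picture than the counts deposited beside them. Across 12345 genes with 1 transcript and 144264 values of at least 20 counts, FPKM followed the count to within 0.954 to 1.03 of expectation, except in 11 values more than 1.1-fold off. All but 2 of those 11 were S100A8, S100A9 and S100A12 in the same 3 libraries (1.5 h number 1, 3.5 h number 3 and 0 h number 3). The deposited FPKM there was 0.333, 0.449 and 0.395 of the value from the count for S100A8, 0.502, 0.51 and 0.496 for S100A9, and 0.221, 0.353 and 0.287 for S100A12. LCN2, LTF and SLPI showed no such gap. Both values come from the authors, and the cause of the gap was not tested.

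The gap changes what is seen at 1.5 h. In deposited FPKM, S100A8 had 20.3, 33.7 and 24.2 at 1.5 h against 64.4, 51.5 and 57.97 at 0 h in libraries 1, 2 and 3. From the counts the same libraries gave 61.04, 33.7 and 24.2 FPKM at 1.5 h against 64.5, 51.4 and 147 FPKM at 0 h. For S100A12 the deposited values were 36.5, 72.4 and 43.9 FPKM at 1.5 h against 148, 127 and 138 FPKM at 0 h, and those from the counts were 166, 72.4 and 43.9 FPKM at 1.5 h against 148, 127 and 480.5 FPKM at 0 h. In deposited FPKM all 3 calgranulins were lower in every 1.5 h library than in any 0 h library, as were 5.86% of the tested genes. From the counts none of them separated, beside 4.02% of the tested genes that did so in that direction. The pair of number 1 carried this contrast, with a log2 difference of S100A8 of −1.66 in deposited FPKM and −0.05 in CPM.

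**Figure D2:**
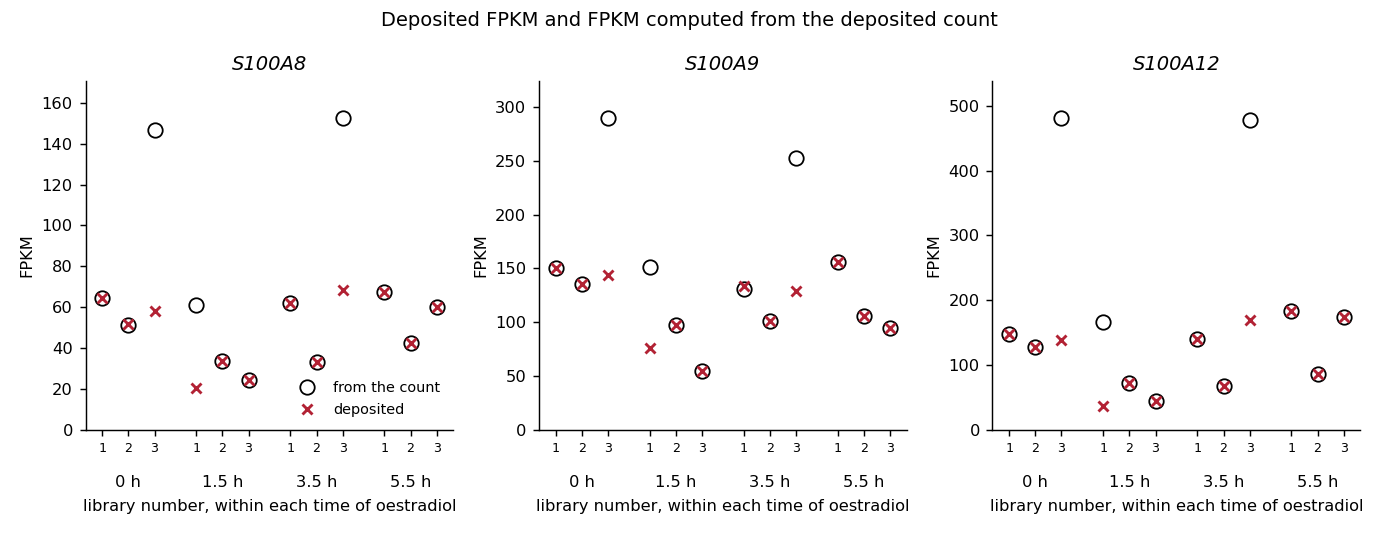
FPKM of the 3 calgranulin genes in each library, as deposited (crosses) and as computed from the deposited count (open circles), by library number within 0, 1.5, 3.5 and 5.5 h. The marks coincide except in number 3 at 0 h, number 1 at 1.5 h and number 3 at 3.5 h, where the deposited values were 0.221 to 0.51 of those from the counts.

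The authors' deposited comparison tables marked S100A8, S100A9 and S100A12 as changed at 1.5 h. The p-values given there were 0.013, 0.00542 and 0.0264, with a q-value of 1 for each. These genes were chosen chiefly with their lower levels at 1.5 h in the same libraries in view. The authors' marks and p-values are therefore quoted as a record only and give no independent test of a change. In the authors' deposited table the log2 ratios of S100A8, S100A9 and S100A12 at 1.5 h were −1.14, −0.93 and −1.42, which equal the ratios of mean FPKM from the counts. The deposited FPKM of that table gave −1.15, −0.92 and −1.43. So at 1.5 h FPKM and counts differed in single libraries far more than in the ratio of means. At 5.5 h the authors' deposited table gave 0.03, −0.27 and 0.1, against −0.63, −0.69 and −0.77 from the counts. For S100A8 that table paired a ratio of 0.97 with a log2 value of 0.03, of opposite sign.

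LCN2 was low throughout. It had 1.87, 1.7 and 7.58 CPM in libraries 1, 2 and 3 at 0 h, 1.82, 3.47 and 2.24 CPM at 1.5 h, 1.33, 1.87 and 5.93 CPM at 3.5 h and 2.23, 2.2 and 3.29 CPM at 5.5 h. Number 3 was highest at 0, 3.5 and 5.5 h and number 2 at 1.5 h. The pair differences at 1.5 h were −0.04, 1.01 and −1.74 on the log2 scale, so the pairs did not share a direction.

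LTF had 4.99, 3.26 and 5.96 CPM in libraries 1, 2 and 3 at 0 h, 4.46, 3.36 and 2.11 CPM at 1.5 h, 3.39, 2.46 and 5.12 CPM at 3.5 h and 4.39, 2.43 and 2.17 CPM at 5.5 h. Within each pair LTF was lower at 3.5 h than at 0 h (log2 differences of −0.55, −0.4 and −0.22) and lower at 5.5 h than at 0 h (−0.18, −0.42 and −1.44). Of all tested genes, 16.2% were lower in each pair at 3.5 h and 15.1% at 5.5 h, and these contrasts share the 0 h libraries. Fitted with no FPKM filter, LTF differed by −0.36 ± 0.4 (SE) at 3.5 h and by −0.66 ± 0.4 at 5.5 h from 0 h, neither of which passed (edgeR, adjusted p = 1 for each).

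In number 3 at 1.5 h against 0 h, SLPI differed in the opposite direction to the calgranulins. It had 13.2, 17.1 and 2.52 CPM in libraries 1, 2 and 3 at 0 h, and 14.7, 20.5 and 10.7 CPM at 1.5 h. The values were 14.8, 22.3 and 3.01 CPM at 3.5 h and 13.5, 18.8 and 4.48 CPM at 5.5 h. Number 3 was the lowest library at every time, and it was the library that moved. At 1.5 h the pair differences were 0.15, 0.26 and 2.07 on the log2 scale. SLPI was also above 0 h in each pair at 3.5 h (0.16, 0.39 and 0.25) and at 5.5 h (0.02, 0.14 and 0.82). Of all tested genes, 16.6% were higher in each pair at 3.5 h and 15.9% at 5.5 h, and all of these contrasts share the 0 h libraries.

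**Figure D3:**
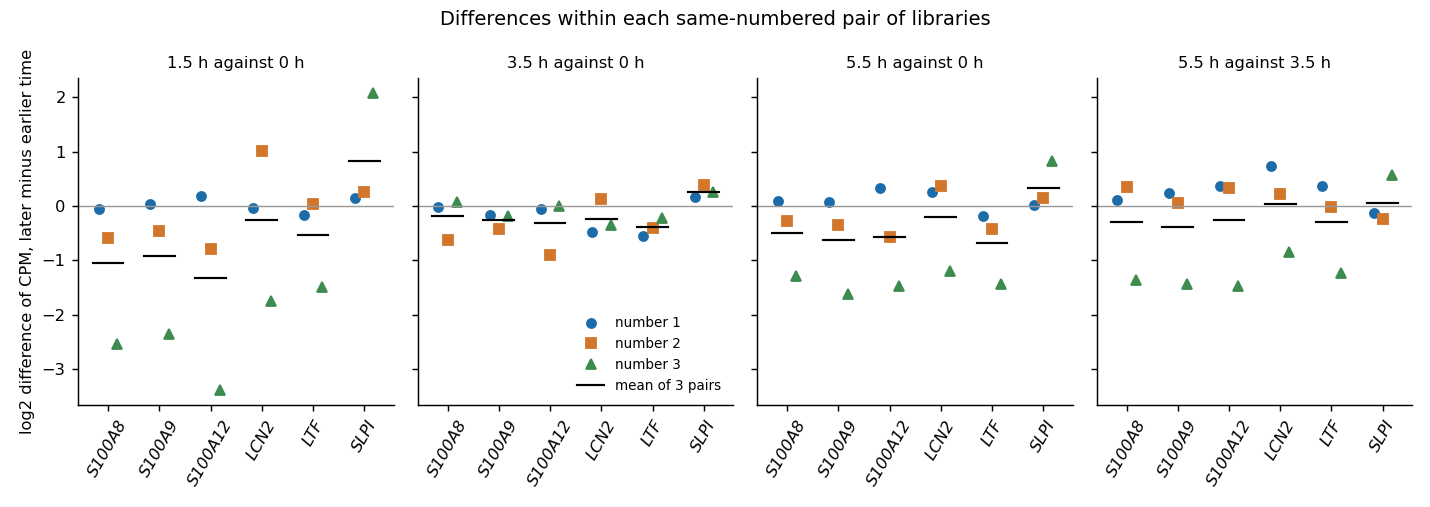
Log2 difference of CPM within each same-numbered pair of libraries, later minus earlier time, for the 6 genes in 4 comparisons (colours give the number, bars the mean of 3 pairs). At 1.5 h against 0 h the calgranulins of number 3 lay at −2.35 to −3.39 and those of number 1 at −0.05 to 0.19, and in 5.5 h against 3.5 h the calgranulins of number 3 fell below 0 and those of numbers 1 and 2 above it.

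No gene of the set passed the test at 3.5 or 5.5 h. Both comparisons reuse the 0 h libraries whose values guided the choice of genes, so their differences and p-values are not independent of that choice. Against 0 h at 3.5 h the log2 differences from the fit across 12025 genes were −0.07 ± 0.55 for S100A8, −0.23 ± 0.43 for S100A9, −0.12 ± 0.74 for S100A12, −0.28 ± 0.65 for LCN2 and 0.29 ± 0.77 for SLPI (SE, edgeR). At 5.5 h they were −0.61 ± 0.55, −0.68 ± 0.43, −0.76 ± 0.74, −0.53 ± 0.66 and 0.16 ± 0.77 in the same order. The adjusted p was 0.9999 for each of these (edgeR quasi-likelihood test with Benjamini-Hochberg adjustment). In each comparison 0 of 5 tested genes of the set were called, beside 0% of all tested genes, and DESeq2 and limma also called 0 of the 5 (DESeq2 called 0.0499% of all tested genes at 3.5 h and 0.0582% at 5.5 h). At an unadjusted p under 0.05 edgeR passed 0 of the 5, with 260 of all genes at 3.5 h and 252 at 5.5 h. DESeq2 called 6 and 7 genes of the whole table. With standard errors of 0.43 to 0.77, a 2-fold difference was under 2 standard errors for S100A8, S100A12, LCN2 and SLPI. The test therefore does not show that the genes stayed level. This fit had no term for library number, so its errors include the spread between numbers. With number added as the replicate block the standard errors were 0.34 to 0.58, and again 0 of the 5 passed (edgeR, adjusted p of 0.83 to 0.98).

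The comparison of 5.5 h with 3.5 h shares no library with 1.5 h against 0 h. The calgranulins again differed by number. S100A8 differed by 0.1, 0.35 and −1.36 in pairs 1, 2 and 3, S100A9 by 0.23, 0.06 and −1.43, and S100A12 by 0.38, 0.33 and −1.47. The fit gave −0.55 ± 0.55, −0.45 ± 0.43 and −0.63 ± 0.74 for S100A8, S100A9 and S100A12, with 0 of 5 tested genes of the set called beside 0% of all tested genes (edgeR, adjusted p = 0.9999 for each). At an unadjusted p under 0.05 edgeR passed 0 of the 5 and 92 of all genes, and DESeq2 called 1 gene in the table (0.00832%) and 0 of the 5. The 3.5 h library numbered 3 is among those with unlike FPKM and counts. In deposited FPKM pair 3 differed by −0.19, −0.45 and 0.04 for S100A8, S100A9 and S100A12, and limma on log2(FPKM + 1) gave 0.098, −0.05 and 0.26, so S100A8 and S100A12 changed sign. In a fit of numbers 1 and 2 alone the 3 genes lay at 0.19, 0.16 and 0.36, so the sign turned on number 3.

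Library number was tested as a term beside time. This test includes the 0 h and 1.5 h libraries whose values guided the choice of genes, so its p-values are not independent of that choice. SLPI differed between numbers, at −1.6 ± 0.31 in number 3 against number 1 and −2.08 ± 0.31 in number 3 against number 2 on the log2 scale (edgeR, adjusted p = 0.00378). It averaged 5.18 ± 3.78 CPM in number 3, 19.7 ± 2.24 in number 2 and 14 ± 0.809 in number 1 (SD, n = 4 times). The call held in each of 12 fits that left out 1 library, with an adjusted p of 2.19e-05 to 0.0186 (edgeR). It was lost when the 3 libraries with unlike FPKM and counts were left out together, at −1.14 ± 0.3 in number 3 against number 1 (adjusted p = 0.054, edgeR with the replicate block).

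LCN2 ran the other way, 1.37 ± 0.41 higher in number 3 than in number 1, and passed narrowly (edgeR, adjusted p = 0.0499). The call was lost in 10 of 12 fits without 1 library, and the adjusted p was 0.0557 with no FPKM filter. Upper-quartile scaling (edgeR, adjusted p = 0.0532) and limma on log2(FPKM + 1) (adjusted p = 0.084) did not call LCN2 either. DESeq2 (adjusted p = 0.0055) and edgeR with no time term (adjusted p = 0.0189) did. S100A12 and S100A8 did not pass (edgeR, adjusted p = 0.105 and 0.125). They passed without the 1.5 h library numbered 3, at 1.1 and 0.77 higher in number 3 than in number 1 (edgeR, adjusted p = 0.00212 and 0.0048). S100A9 did not pass in any of the 12 (edgeR, adjusted p = 0.455 with all libraries). In all, 2 of 5 tested genes of the set were called, beside 35.5% of all tested genes. Without the 1.5 h library numbered 3 it was 4 of 5 beside 48.2%. The limit from the choice of genes holds for these calls too.

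The spread over the 12 libraries is given as a description, since the genes were chosen on measured values of the same libraries. The SD of log2 CPM over the 12 libraries was 1.08 for SLPI, 1.03 for S100A12, 0.78 for S100A8, 0.75 for LCN2 and 0.64 for S100A9, beside a median of 0.23 over tested genes, and LTF was not among the tested genes. For SLPI, number held 79.3% of the sum of squares and time 8.36%. For S100A9 number held 9.37%, time 33.7% and the remainder 56.9%. S100A8 and S100A12 lay between, at 27.5% and 28.4% for number and 28.8% and 24.9% for time, and the median gene had 45.9% and 17.2%. These shares are descriptions of 12 libraries.

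Levels of the calgranulins moved together across the 12 libraries. Pearson's r of log2 CPM was 0.993 for S100A8 with S100A12 (Spearman's rho 0.937) and 0.936 for S100A8 with S100A9 (rho 0.874). In deposited FPKM the same pairs had r of 0.99 and 0.851. LTF with S100A9 had r of 0.896 (rho 0.909) in CPM and 0.608 in deposited FPKM. SLPI had r of −0.764 with S100A8, −0.545 with S100A9 and −0.78 with S100A12 in CPM (rho −0.629, −0.406 and −0.699). In deposited FPKM these were −0.428, −0.153 and −0.446. SLPI with LCN2 had r of −0.826 in CPM (rho −0.5245) and −0.842 in deposited FPKM. These values describe libraries that share numbers and times, and the number 3 libraries hold the extremes.

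Summed markers of other cell types also differed between these libraries. The 10 measured fibroblast and stromal markers, among them FBN1 (fibrillin) and the collagen genes COL1A1 and COL3A1, summed to 33.8, 29.2 and 37.8 CPM in number 3 at 0, 3.5 and 5.5 h, with 191 CPM in number 3 at 1.5 h. In numbers 1 and 2 the sum stayed between 125 and 164 CPM. The 7 smooth muscle markers, which TAGLN (transgelin) dominated, summed in number 3 to 212, 1946, 319 and 533 CPM at 0, 1.5, 3.5 and 5.5 h, against 816 to 1603 CPM in numbers 1 and 2. So in number 3 both lists were highest at 1.5 h, where SLPI was highest and the calgranulins lowest. The sum of the 6 endothelial markers, led by VWF (von Willebrand factor), was lowest there, at 72.9 CPM in number 3 at 1.5 h and 103 to 115 CPM in the other number 3 libraries. In numbers 1 and 2 they summed to 156 to 226 CPM. By time, the fibroblast list summed to 131 to 191 CPM at 1.5 h against 33.8 to 135 CPM at 0 h. PDGFRB, POSTN and LUM had 0 counts in at least 1 library. Single markers did not all follow the sums. MYH11 stayed at 3.51 to 5.08 CPM and DES at 0 to 0.1885 CPM over the 12 libraries. ACTA2, CNN1, SYNPO2 and MYLK ranged over 6.585 to 39.4, 3.05 to 117, 11.1 to 58.8 and 1.32 to 4.96 CPM. Of the endothelial markers PECAM1 had 0 to 0.536 and TEK 0 to 0.4045 CPM, against 44.9 to 137 for VWF and 20.5 to 80.3 CPM for CDH5. The part of these cells in the results was not tested.

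**Figure D4:**
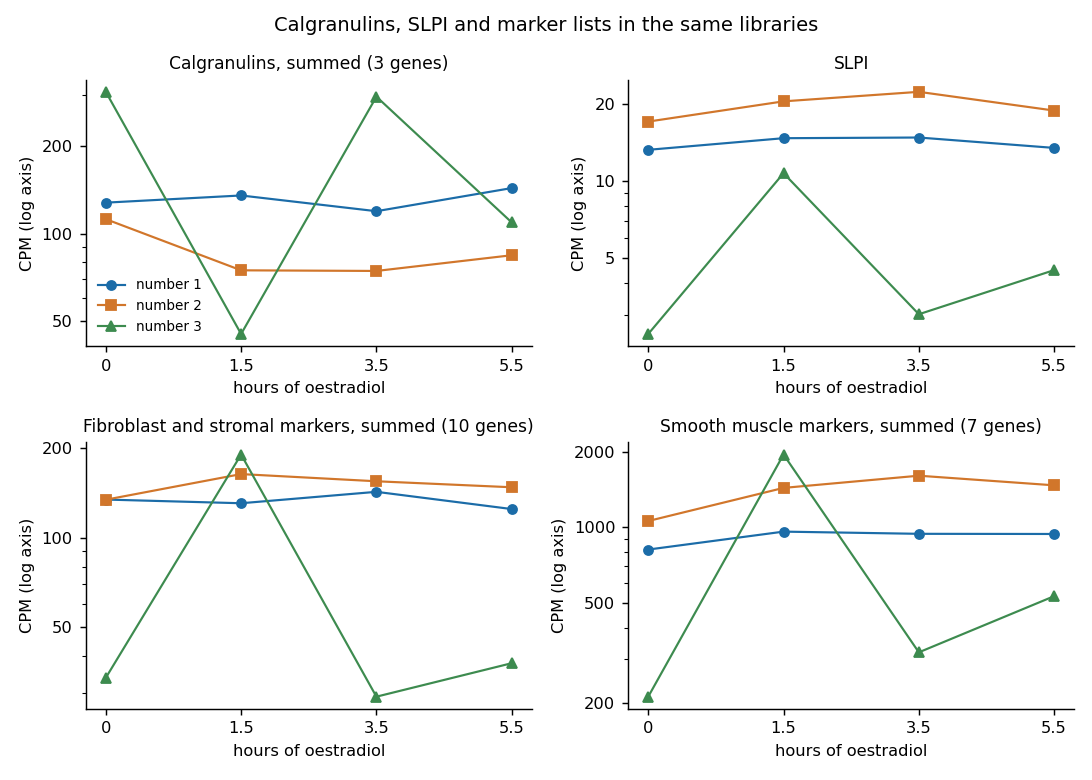
Summed CPM (log axis) of the 3 calgranulins, CPM of SLPI and summed CPM of fibroblast and stromal and of smooth muscle markers in the 12 libraries, by hours of oestradiol and library number. In number 3 the calgranulin sum was 45.2 CPM at 1.5 h against 308 at 0 h, while the fibroblast sum was 191 against 33.8 CPM.

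Calgranulins are also neutrophil genes, and the markers of white blood cells given here were scarce. Of 20 neutrophil and myeloid markers 14 were in the table and 1 passed the filter, CYBB, which encodes a subunit of the NADPH oxidase. CSF3R, CXCR1, CXCR2, ELANE, FPR1 and FPR2 were absent from the table and could not be measured. The granule enzyme gene MPO had 0 to 3 counts, the myeloid factor gene SPI1 0 to 8 and the pan-leukocyte gene PTPRC 0 to 40 counts per library. These 14 markers summed to 2.42 to 7.44 CPM over the 12 libraries, of which CYBB took 2.09 to 4.67 CPM, and number 3 had the lowest sum at each time. The sums spanned 2.42 to 7.44 CPM at 0 h, 4.21 to 6.51 at 1.5 h, 4.47 to 5.49 at 3.5 h and 3.31 to 5.99 CPM at 5.5 h. None of the 5 lymphocyte markers in the table passed the filter.

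The labelled cell type could be checked against its markers. General epithelial markers, such as keratins and claudins, summed to 9619 to 15707 CPM, and the secretory oviduct markers to 3638 to 6002 CPM, mostly from KRT7. The secretory factor gene PAX8 had 167 to 293 CPM. The oviductal glycoprotein gene OVGP1, a defining product of oviduct secretory cells, lay below the filter in both of its entries (0.122 to 2.9 and 0.241 to 2.74 CPM). The ciliogenesis regulator FOXJ1 was at or near 0 (0 to 0.25 CPM), and 9 of 11 ciliated markers in the table lay below the filter. TPPP3 and RSPH1 passed it, at 10.3 to 37.3 and 10.7 to 17.55 CPM. The secretory list was 5697 CPM in number 3 at 1.5 h and 3638 to 4137 CPM in the other number 3 libraries.

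No other listed gene of mucosal defence passed the test at 3.5 or 5.5 h. Of 13 tested genes on a list of 28, 0 were called at 3.5 h (5 higher, 8 lower, median log2 difference −0.07) and 0 at 5.5 h (4 higher, 9 lower, median −0.16), beside medians of 0.005 and 0.009 over all tested genes (edgeR). The most abundant per length were the mucin gene MUC1 (mean 239 FPKM), the whey acidic protein gene WFDC2 (222), a relative of SLPI, and the chemokine gene CCL20 (117). By number, 4 of the 13 were called beside 35.5% of all tested genes, namely TF (transferrin, −1.35 in number 3 against number 1), MUC20 (−0.3), RNASE4 (0.43) and LBP (lipopolysaccharide-binding protein, 1.14).

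The leading other S100 genes had higher levels per length than the calgranulins. Of 9 tested, 0 were called at 3.5 h (7 higher, 2 lower) or at 5.5 h (7 higher, 2 lower; edgeR), and the medians were 0.03 and 0.07. S100A2 averaged 3579 FPKM, S100A10 2528 and S100A11 1813 FPKM. By number 2 of the 9, S100A4 (−0.84) and S100A5 (−0.67), were called beside 35.5% of all tested genes, both lower in number 3 than in number 1. S100A2 ranged from 982 to 1337 CPM over the 12 libraries.

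Receptors and upstream factors were measured too. Of 4 tested receptor genes, which included the calprotectin receptor gene TLR4, its partner LY96 and BSG, a binding partner of S100A9, 0 were called at 3.5 h (0 higher, 4 lower) or at 5.5 h (1 higher, 3 lower). By number 3 of the 4 were called beside 35.5% of all tested genes, with TLR4 at 0.36 and LY96 at −0.52 in number 3 against number 1. AGER, which encodes the receptor for S100A12, had 0 to 48 counts and lay below the filter, at a mean of 0.198 FPKM. Of 17 tested cytokines, receptors and factors that act upstream of these genes, 0 were called at 3.5 h (8 higher, 9 lower) or at 5.5 h (9 higher, 8 lower). By number 10 of the 17 were called beside 35.5% of all tested genes, among them the neutrophil chemokine gene CXCL8 (−1.82) and NFKBIZ, which encodes a nuclear cofactor of NF-kB (0 when number 3 is set against number 1, so its difference lay with number 2).

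By likeness of log2 CPM over the 12 libraries, SLPI stood closest to ECM1 (r 0.995), the interferon-induced gene IFI6 (0.993), the unnamed ENSOARG00000015830 (0.989), SCRN1 (0.987) and ROBO3 (0.986). The genes closest to S100A12 were the unnamed ENSOARG00000007979 and ENSOARG00000007547 (0.963 and 0.962), ARSD (0.953), LIPA, a lysosomal lipase gene (0.947), and ATP11B (0.939). The same unnamed genes, LIPH, TGFBRAP1 and the bradykinin receptor gene BDKRB2 came closest to S100A8 (0.936 to 0.952). DHX16 came closest to S100A9 (0.947) and WDR53 to LCN2 (0.949). In deposited FPKM the leading genes of S100A12, both unnamed, had r of 0.666 and 0.509, while ECM1 kept an r of 0.994 with SLPI.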

How the data were processed

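RNA had been taken with Trizol and sequenced on Illumina libraries, per the labels' protocols. TopHat2 2.0.9 and Cufflinks are named in the submitters' processing notes, with no role for either. No source used here gives the genome build or the counting tool. Each gene has a count and an FPKM per library in the authors' table, per the file headers. Their deposited comparison tables hold a ratio, a log2 ratio, a p-value and a q-value per gene. Left unused were 12 per-sample columns. RefSeq (ARS-UI_Ramb_v3.0) supplied names for 1162 of 4788 unnamed genes and no coordinates.

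Counts were scaled by TMM (factors 0.975 to 1.02) and tested with edgeR 4.0.16 in R 4.3.3, in 1 model of 4 times over 12 libraries. The 12025 genes with a mean deposited FPKM of at least 1 entered, and an adjusted p under 0.05 was called. FPKM was also computed from the counts, as count over library total and transcript length. These values were scaled per library by the median ratio of deposited to computed FPKM (0.929 to 0.936). For the 1.1-fold check, each ratio was also set against the median ratio of its gene. DESeq2 1.42.0 and limma 3.58.1 served as alternatives, and code was tested on simulated data. The genes and the lists were chosen with earlier results of these data known. The neutrophil and myeloid list, its counts and its sums leave out 1 gene that is not reported here. The 3 genes of largest mean FPKM in a list were to be named, and other named list genes were chosen after their values were seen. For likeness the rule took the 5 genes of highest Pearson's r per tested gene.

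Deviations from the time means correlated at 0.218 to 0.705 in the 18 library pairs that share a number and at −0.6 to 0.331 in the 36 that do not. All 18 exceeded the limit of 0.1, as did 7 of the 36, so the limit did not separate the kinds of pair and their ranges overlapped. Taking deviations from the time means also lowers the correlations between unlike numbers, so the contrast is weaker evidence than it looks. The numbers were taken as pairs on this evidence from the data, and no label states the pairing.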

Additional observations from a re-analysis of the deposited data

How the results depend on the processing

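Log2 differences from counts kept their direction under TMM, RLE and upper-quartile scaling, both FPKM filters and DESeq2, except S100A9 between numbers 3 and 1 (−0.0011 with all libraries and TMM). That value was 0.0067 with RLE size factors, 0.013 with no FPKM filter, 0.0033 in DESeq2, 0.204 with no time term and 0.38 without the 1.5 h library numbered 3. At 4.85e+07 counts or more per library, LCN2 rested on 70 to 373 counts, LTF on 108 to 400 and SLPI on 124 to 1157.

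Fits that left out 1 library in turn spanned 0 for S100A8, S100A9, S100A12, LCN2 and SLPI at 3.5 h against 0 h (−0.84 to 0.52, −0.69 to 0.18, −1.24 to 0.73, −1.21 to 0.77 and −0.301 to 0.76). At 5.5 h against 0 h S100A12, LCN2 and SLPI did so (−1.07 to 0.097, −0.87 to 0.52 and −0.31 to 0.63), while S100A8 and S100A9 stayed below 0 (−0.88 to −0.033 and −0.93 to −0.27). Against 3.5 h at 5.5 h the ranges were −0.92 to 0.22, −0.71 to 0.0070, −1.07 to 0.48, −0.601 to 0.68 and −0.597 to 0.46 in the order S100A8, S100A9, S100A12, LCN2, SLPI. Between numbers 3 and 1 they were −0.075 to 0.77, −0.35 to 0.38, −0.0020 to 1.1, 0.99 to 1.72 and −2.07 to −1.37.

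On deposited FPKM, limma with a pseudocount of 1 and 0.1 gave S100A12 0.0242 and 0.0238 at 5.5 h against 0 h. At 5.5 h against 3.5 h it gave S100A8 0.098 and 0.1003, S100A12 0.257 and 0.26, SLPI 0.063 and 0.079, and LCN2 0.0302 with a pseudocount of 0.1. On FPKM from the counts, an alternative added after seeing the data, SLPI was 0.061 there.

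With the replicate block the direction turned at 5.5 h against 3.5 h for LCN2 (0.019) and SLPI (0.011), and in DESeq2 with the block for LCN2 and SLPI too (0.026 and 0.018). In numbers 1 and 2 alone LCN2 at 5.5 h against 0 h was 0.31 without and 0.3045 with the block. At 5.5 h against 3.5 h, in numbers 1 and 2, S100A8, S100A9, S100A12 and LCN2 were 0.19, 0.16, 0.36 and 0.47 without the block and 0.22, 0.14, 0.35 and 0.49 with it. Without the 1.5 h library numbered 3, with the block, LCN2 and SLPI were 0.085 and 0.049 there. The block changed no call among the genes of the set.

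Leaving out the 3 libraries with unlike FPKM and counts, an alternative chosen after seeing the data, gave (with the block) S100A8 0.031, S100A12 0.103, LCN2 0.47 and SLPI −0.056 at 5.5 h against 0 h. It gave S100A8 0.34, S100A9 0.22, S100A12 0.57 and LCN2 0.65 at 5.5 h against 3.5 h, and S100A8 −0.497 and S100A12 −0.47 between numbers 3 and 1. The cause of these turns was not tested.

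Over all tested genes, 0 were called at each time in edgeR without the block. At 1.5 h, 3.5 h and 5.5 h against 0 h and 5.5 h against 3.5 h, DESeq2 called 1, 6, 7 and 1. The block in edgeR called 1, 0, 0 and 0, and DESeq2 with the block 96, 34, 32 and 4. Numbers 1 and 2 alone with the block gave 21, 28 and 71 at 1.5, 3.5 and 5.5 h against 0 h, and 1 at 5.5 h without it. Without the 1.5 h library numbered 3, with the block, 4 genes were called at 1.5 h and 12 at 5.5 h. Fits without 1 library called 0 to 1 at 1.5 h, 5.5 h and 5.5 h against 3.5 h. For number, edgeR called 4265 genes, 2064 to 5794 without 1 library, and 390 without the 3 libraries. Of the genes of the set it called 2. With upper-quartile scaling, no FPKM filter, a mean FPKM of at least 5 (where LCN2 was not tested) or limma (either pseudocount, or FPKM from the counts) it was 1, SLPI. It was 4 without the 1.5 h library numbered 3, 0 without the 3 libraries, and 1 to 4 without 1 library. The promoter search was not run.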

Other observations

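Outside the calgranulins, the 2 other values whose deposited FPKM was more than 1.1-fold off the count belonged to CYP1B1, a cytochrome P450 gene that hydroxylates oestradiol. At 3.5 h in number 2 it had 1657 counts and a deposited FPKM of 9.51, where the count gives 17.1. At 0 h in number 3 it had 31 counts and a deposited FPKM of 6.89, where the count gives 0.33.

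At 0 h the deposited FPKM of number 3 came close to the mean of numbers 1 and 2 for the calgranulins, at 57.97 against 57.96 for S100A8, 143.8 against 143.2 for S100A9 and 137.7 against 137.6 for S100A12. Of all tested genes, 1.44% came within 0.5% in this way. This was looked for after the values were seen.

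The FPKM values repeated in the authors' deposited comparison tables differed from those of the gene table for 14 entries, all of S100A8, S100A9 or S100A12. The differences were small, such as 143.2 against 143.8 for S100A9 at 0 h in number 3 and 131.2 against 133.2 at 3.5 h in number 1. The authors' deposited enrichment tables carried mean FPKM of 62.9 at 1.5 h against 135 at 0 h for S100A8, 60.9 against 178 for S100A12 and 90.9 against 184 for S100A9, which match neither set of means.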
